A study of Homo sapiens with 60 samples.

Results

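The enterocyte brush border and CDX genes are 10 genes that mark absorptive intestinal epithelium, followed here in HT29 cells, an established line from a human colorectal tumour, after treatment with herbal extracts. The members are VIL1, EZR, MYO1A, CDH17, CDHR2, CDHR5, FABP1, CDX1, CDX2 and KRT20. They are the rows of the deposited count table whose Ensembl identifiers carry these symbols, 10 of 60675 genes. Cells received an ethanol extract of an herb or of an herbal formula for 24 h, or DMSO as vehicle. Polygalae Radix was given at 380, 76 and 15.2 µg/mL and Aucklandiae Radix at 370, 74 and 14.8 µg/mL, with 2 libraries per dose. Menthae Herba, Saposhnikoviae Radix, Saengmaek-san and Guibi-tang were given at 500, 100 and 20 µg/mL with 3 libraries per dose. Soyo-san was given at the same doses with 2 libraries per dose, Okbyeongpung-san at these doses with 1 library per dose, and the vehicle has 3 libraries. The high, medium and low dose below are these concentrations in falling order. The sample labels give the vehicle as 0.1% DMSO and the design text as 2% DMSO. Whether the libraries of a group are separate cultures is not in the labels. A p-value here sets a difference against the spread among those libraries, and that spread may be technical.

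The brush border is the carpet of microvilli on the free surface of an enterocyte. Each microvillus holds a core of actin filaments that villin (VIL1) bundles and that ezrin (EZR) and the motor MYO1A tie to the membrane. The protocadherins CDHR2 and CDHR5 link the tips of neighbouring microvilli. CDH17 is a cadherin of the side membranes of intestinal cells, FABP1 carries fatty acids inside the cell, and KRT20 is a keratin of mature surface epithelium. CDX1 and CDX2 are homeodomain transcription factors that set intestinal identity.

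Total expected counts per library ran from 18690501 to 36796414 over all libraries but one. That one, Saposhnikoviae Radix low replicate 2, has a total of 17079221 and stood apart from the rest, and it is left out of every value below unless named. The fit then held 56 libraries in 22 groups and tested 16978 genes. All 8 markers of colorectal epithelium averaged over 1 CPM in the vehicle (CPM, counts scaled to library totals adjusted with the TMM method). Their summed level was 7272 to 14664 CPM over the 56 libraries. No marker of enteroendocrine cells, squamous epithelium or hepatocytes averaged over 1 CPM there, and 1 of 6 fibroblast markers (COL1A1, 1.80 CPM) and 1 of 5 blood cell markers (CD68, 7.17 CPM) did. In bulk RNA, fewer cells that express a gene and less RNA per cell cannot be told apart.

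Per kilobase of exon, the members differed widely in cells given the vehicle. On this length-scaled level in the vehicle, KRT20 had 136 ± 11.8 and EZR 120 ± 12.4 CPM per kb (SD, n = 3), and the 2 did not differ beyond their spread. VIL1 followed with 23.8 ± 0.398 CPM per kb and CDHR5 with 4.34 ± 0.205. CDX2 had 1.08 ± 0.152, CDH17 0.782 ± 0.0346, CDX1 0.522 ± 0.0775, FABP1 0.455 ± 0.0953 and MYO1A 0.132 ± 0.0207 CPM per kb. CDHR2 had 0.0166 ± 0.00842 CPM per kb and did not pass the filter on low counts, which 9 of the 10 members passed. By RNA, KRT20, EZR and VIL1 were thus the most abundant members here, while both CDX factors were low and the motor MYO1A was lower still.

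The question put to each extract was which members its high dose moved relative to its own low dose. Both doses of an extract belong to 1 set of libraries by name, and no library is shared between extracts in this comparison. A gene is called where the edgeR quasi-likelihood test gave a Benjamini-Hochberg adjusted p under 0.05, adjusted over every gene tested. Aucklandiae Radix moved most members: 3 of 9 tested were higher and 5 lower, where 58.7% of all genes were called, 29.6% higher and 29.1% lower. Under Polygalae Radix 0 members were higher and 3 lower, where 29.3% of all genes were called, 13.3% higher and 16.0% lower. Menthae Herba had 2 higher and 1 lower (23.5% of all genes, 12.0% higher and 11.6% lower) and Guibi-tang 2 higher and 2 lower (17.9% of all genes, 8.84% higher and 9.08% lower). Soyo-san (2.49% of all genes, 1.11% higher and 1.38% lower), Saengmaek-san (0.848%, 0.412% higher and 0.436% lower) and Saposhnikoviae Radix (0.289%, 0.183% higher and 0.106% lower) had 1 member lower and 0 higher each. That member was VIL1 in all 3. For Aucklandiae Radix the share of members called was 8 of 9, in a comparison in which most genes moved. The median log2 fold change of the 9 members was -0.79 under Aucklandiae Radix and -0.45 under Polygalae Radix, against medians of -0.02 and -0.01 over all genes tested. The median under Aucklandiae Radix is the value of VIL1, with members moved both ways around it, so it is no common shift. Members were chosen with earlier results of these data known, so these medians are descriptions.

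**Figure D1:**
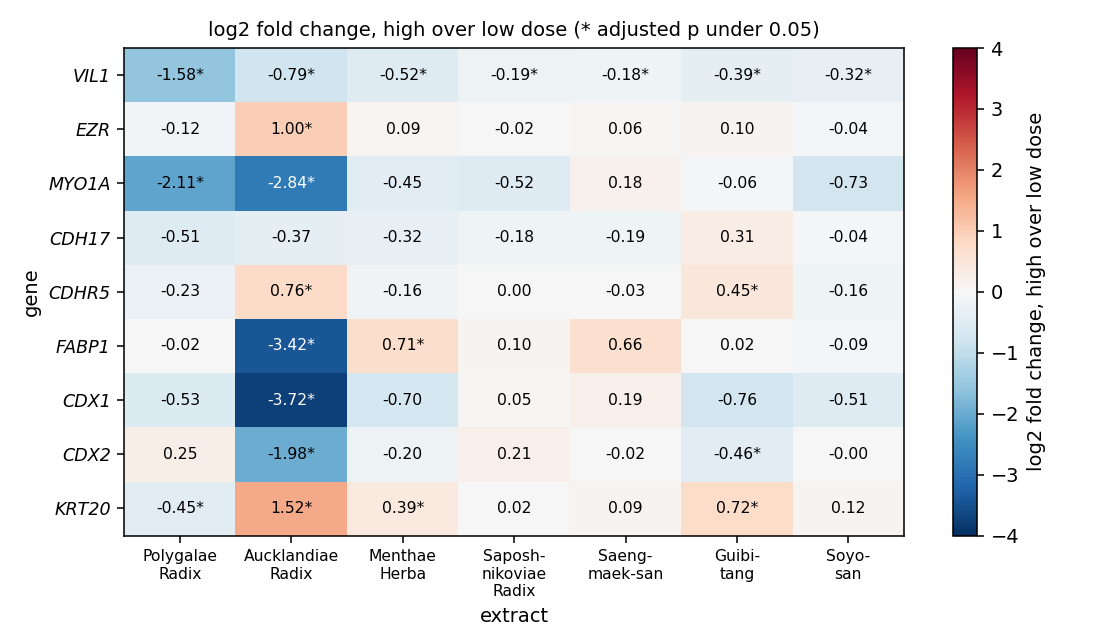
log2 fold change of the high over the low dose for the 9 tested members (rows) in the 7 extracts with replicates (columns), with a star where the adjusted p of the edgeR test was under 0.05. VIL1 is negative and starred in every column, while the column of Aucklandiae Radix holds both falls (CDX1, FABP1, MYO1A, CDX2, VIL1) and rises (KRT20, EZR, CDHR5).

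VIL1, the actin bundler of the microvillus core, was lower at the high than at the low dose of all 7 extracts. Its gene lies on chromosome 2, 218419092 to 218453295, plus strand (GENCODE 29, GRCh38; ENSG00000127831). Polygalae Radix had 55.9 and 53.3 CPM at the high dose, against 164 and 162 CPM at the low dose. Aucklandiae Radix had 93.4 and 91.7 CPM at the high dose, against 161 and 159 CPM at the low dose. Menthae Herba had 110, 116 and 117 CPM at the high dose, against 164, 160 and 166 CPM at the low dose. In each of these extracts every high-dose library lay below every low-dose library. The log2 fold changes were -1.58 ± 0.04 SE for Polygalae Radix (edgeR adjusted p 6.23e-30), -0.79 ± 0.04 for Aucklandiae Radix (edgeR adjusted p 4.00e-21) and -0.52 ± 0.03 for Menthae Herba (edgeR adjusted p 2.41e-16).

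The 4 other extracts lowered VIL1 by less. Guibi-tang had 128, 125 and 127 CPM at the high dose, against 165, 173 and 162 CPM at the low dose (log2 -0.39 ± 0.03 SE, edgeR adjusted p 4.27e-13). Soyo-san had 132 and 140 CPM at the high dose, against 169 CPM in both libraries of the low dose (-0.32 ± 0.04, edgeR adjusted p 6.17e-07). Saengmaek-san had 144, 147 and 148 CPM at the high dose, against 168, 163 and 167 CPM at the low dose (-0.18 ± 0.03, edgeR adjusted p 0.000788). Saposhnikoviae Radix had 148, 149 and 148 CPM at the high dose, against 168 and 170 CPM at the low dose (-0.19 ± 0.04, edgeR adjusted p 0.00346). The ranges of high and low dose did not overlap in any of these 4 extracts either. The call in Saposhnikoviae Radix was lost without the low-count filter (adjusted p 0.141), with the spread estimated from its own set (0.101) and without low replicate 1 (0.0847) or low replicate 3 (0.119). With the outlying library kept, VIL1 was at 0.10 there (edgeR adjusted p 0.529), and its calls were lost in Guibi-tang (0.0672), Soyo-san (1) and Saengmaek-san (1), though the fold changes in these 3 moved by little (-0.40, -0.31 and -0.19).

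**Figure D2:**
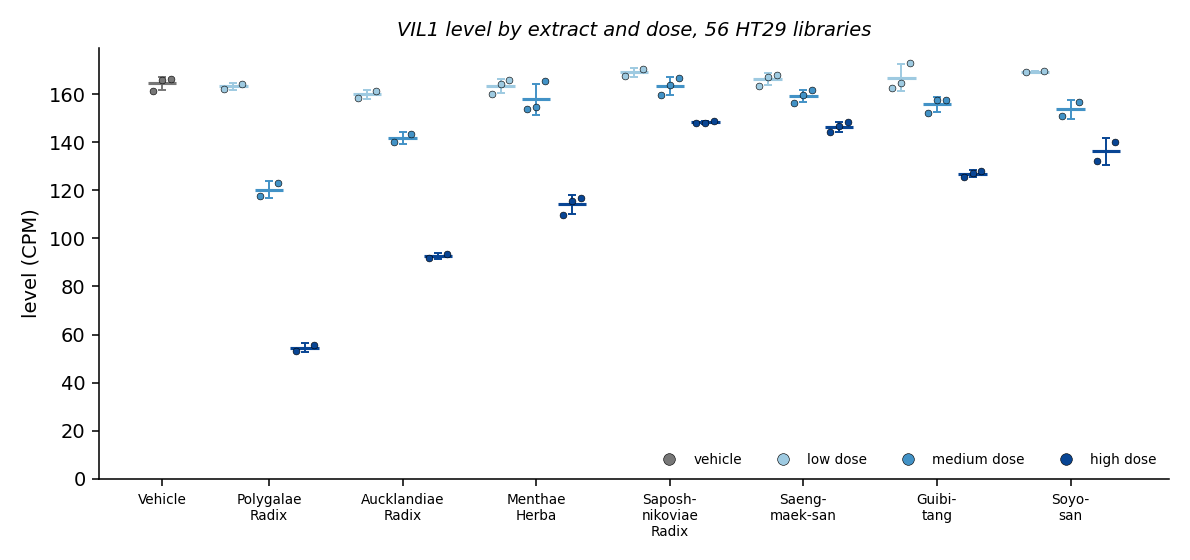
VIL1 level in CPM (vertical axis) in the vehicle and at the low, medium and high dose of 7 extracts (horizontal axis). Points are libraries, lines are group means and bars are SD. Each extract steps down toward its high dose, to 54.6 CPM on average in Polygalae Radix and 148 CPM in Saposhnikoviae Radix, and all low-dose groups lie near the vehicle mean of 164 CPM.

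Ranked over all 22 groups, VIL1 was lowest at the high dose of Polygalae Radix, with a mean of 54.6 ± 1.84 CPM (n = 2), 33.2% of the vehicle mean. It was followed by Aucklandiae Radix high (92.6 ± 1.22, 56.3% of the vehicle), Menthae Herba high (114 ± 3.86, 69.4%), Polygalae Radix medium (120 ± 3.58) and Guibi-tang high (127 ± 1.41, 77.1%). The ranges of neighbours in this order did not overlap up to Soyo-san high (136 ± 5.68, 82.8%), which overlapped Aucklandiae Radix medium (142 ± 2.45). Saengmaek-san high (146 ± 2.12, 89.0%) and Saposhnikoviae Radix high (148 ± 0.565, 90.2%) overlapped each other. The remaining groups ran from 154 to 169 CPM, with the vehicle at 164 ± 2.75 CPM, and the ranges of nearly all neighbours there overlapped. Against the vehicle, VIL1 was also called lower at the medium dose of Polygalae Radix (-0.45 ± 0.04 SE, edgeR adjusted p 2.08e-12) and of Aucklandiae Radix (-0.22 ± 0.04, edgeR adjusted p 3.83e-05), so the fall was graded over the doses of these extracts.

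Among all 16978 genes tested, 6 were called lower in the high against the low dose of all 7 extracts and 4 were called higher. VIL1 is one of the 6, beside ATP6V1B1, SLC40A1, PTPRO, LSS and LINC00261, names taken after their values were seen. Its place among the 6 depends on the call in Saposhnikoviae Radix, which was lost under several settings named above. With the outlying library kept, further calls of VIL1 were lost. How far the other genes named keep their calls was not checked. VIL1 shares its last part with USP37, a deubiquitinase gene on the opposite strand (chromosome 2, 218450251 to 218568361), and the strand setting of the counting is not given in the sources used here. USP37 was called in none of the 7 comparisons of high with low dose. Its log2 fold change was 0.11 ± 0.13 SE under Polygalae Radix and -0.25 ± 0.13 under Aucklandiae Radix, and over all libraries it had 39529 counts, against 215246 for VIL1.

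Over the 22 group means of log2 CPM, the genes whose pattern was most like that of VIL1, out of 10554 compared, were LGALS3BP (Pearson r 0.97), PAPSS1 (0.97), MAGED1 (0.96), SERPINB1 (0.96) and MYLK (0.95). LGALS3BP, a secreted glycoprotein, averaged 417 CPM at the high dose of Polygalae Radix and 539 CPM at that of Aucklandiae Radix, against 751 CPM in the vehicle. MYLK, the kinase of the myosin light chain, averaged 22.1 CPM at the high dose of Polygalae Radix and 27.4 CPM at that of Aucklandiae Radix, against 34.9 CPM in the vehicle. These correlations are descriptions, since the groups share an experiment and the low-dose groups lie near the vehicle.

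CDX2, the master factor of intestinal identity (chromosome 13, 27962137 to 27971139, minus strand), fell at the high dose of Aucklandiae Radix and, by less, of Guibi-tang. Aucklandiae Radix had 0.986 and 1.22 CPM at the high dose, against 5.08 and 3.59 CPM at the low dose. Every high-dose library was under every low-dose library, and the log2 fold change was -1.98 ± 0.20 SE (edgeR adjusted p 2.40e-11). Guibi-tang had 2.91, 2.96 and 3.23 CPM at the high dose, against 4.16, 3.89 and 4.48 CPM at the low dose, again without overlap. Its log2 fold change of -0.46 ± 0.14 SE passed the test (edgeR adjusted p 0.0188) but did not pass without high replicate 1 (0.0658), high replicate 2 (0.0662) or low replicate 3 (0.0748), nor with the outlying library kept (0.171). Polygalae Radix, which lowered VIL1 most, had 4.91 and 4.67 CPM of CDX2 at the high dose, against 3.39 and 4.65 CPM at the low dose, and the difference did not pass (0.25 ± 0.17, edgeR adjusted p 0.285).

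CDX1, the paralogue of CDX2 (chromosome 5, 150166795 to 150184558, plus strand), has few counts in HT29. Aucklandiae Radix high had 3 and 0 counts in its libraries, against 23 and 20 counts at the low dose. Summed over libraries, that is 3 against 43 counts, a depth-scaled level 14.2 times lower with an exact 95% interval of 4.53 to 71.3 that covers counting error only. The fitted log2 fold change was -3.72 ± 0.59 SE (edgeR adjusted p 5.84e-07), a value that for such counts depends on the prior count. No other extract had CDX1 called between high and low dose. Polygalae Radix had 12 and 10 counts at the high dose, against 14 and 18 counts at the low dose (-0.53 ± 0.42, edgeR adjusted p 0.379).

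Genes most like CDX2 over the 22 groups were FOXA1 (Pearson r 0.98), HOXB9 (0.98), SLC43A1 (0.98), IGFBP4 (0.98) and F2R (0.97). FOXA1, a pioneer transcription factor of endodermal epithelium, averaged 60.3 CPM at the high dose of Aucklandiae Radix, against 151 CPM in the vehicle. HOXB9, a homeobox gene of the posterior body axis, averaged 74.1 CPM at the high dose of Aucklandiae Radix, against 315 CPM in the vehicle. At the high dose of Polygalae Radix FOXA1 averaged 164 CPM and HOXB9 296 CPM. The high dose of Aucklandiae Radix is the group farthest from the rest in all of these genes.

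FABP1, the liver-type fatty acid binding protein that enterocytes use to carry absorbed fat (chromosome 2, 88122982 to 88128116, minus strand), fell close to 0 at the high dose of Aucklandiae Radix. It had 5 and 1 counts in the high-dose libraries, against 39 and 28 counts at the low dose. The summed level was 11.0 times lower, with an exact 95% interval of 4.81 to 31.1 for counting error, and the fitted log2 fold change was -3.42 ± 0.46 SE (edgeR adjusted p 1.93e-08). Menthae Herba moved FABP1 the other way, with 44, 71 and 57 counts at the high dose, against 47, 19 and 32 counts at the low dose. In CPM these were 1.79, 2.45 and 2.05 at the high dose, against 1.81, 0.864 and 1.16 at the low dose, so the ranges overlapped. The rise of 0.71 ± 0.23 SE on the log2 scale passed (edgeR adjusted p 0.0184), but not without high replicate 2 (0.111), low replicate 2 (0.145) or low replicate 3 (0.0814), nor with the outlying library kept (0.234).

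MYO1A, the motor that anchors the core bundle to the microvillus membrane (chromosome 12, 57028517 to 57051198, minus strand), fell under both Polygalae Radix and Aucklandiae Radix. Polygalae Radix high had 5 and 2 counts, against 17 and 14 counts at the low dose, a summed level 4.43 times lower (exact 95% interval 1.92 to 11.9). Aucklandiae Radix high had 2 and 3 counts, against 12 and 26 counts at the low dose, a summed level 7.51 times lower (exact 95% interval 2.95 to 24.4). The fitted log2 fold changes were -2.11 ± 0.46 SE for Polygalae Radix (edgeR adjusted p 0.00044) and -2.84 ± 0.48 for Aucklandiae Radix (edgeR adjusted p 1.99e-06). The difference between the 2 changes, 0.72 ± 0.74 SE, did not pass (edgeR adjusted p 0.523).

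**Figure D3:**
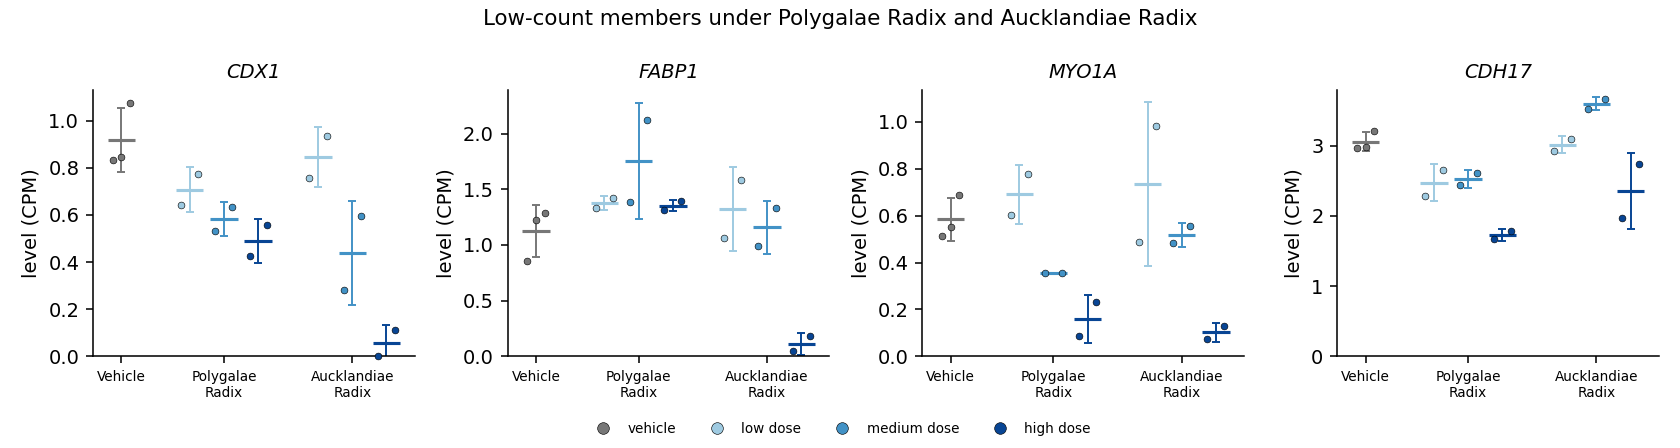
Levels in CPM (vertical axes) of CDX1, FABP1, MYO1A and CDH17 in the vehicle and at the low, medium and high dose of Polygalae Radix and Aucklandiae Radix (horizontal axes). Points are libraries, lines means and bars SD. CDX1 and FABP1 drop close to 0 at the high dose of Aucklandiae Radix and not of Polygalae Radix, while MYO1A is low at the high dose of both.

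Promoter sequence was set beside these members because CDX2 is known to bind A and T rich sites, of which TTTAT is the core and TTTATNG a longer form. RefSeq promoter windows (GRCh38.p14) outside GENCODE exons were used for EZR, FABP1 and KRT20 and for 2 starts each of MYO1A and CDHR2, while VIL1, CDHR5, CDX1, CDX2 and CDH17 are named only. Shown 5′ to 3′ on the gene's strand are windows of 2 members that fell at the high dose of Aucklandiae Radix, FABP1 and MYO1A, and of 2 that rose, KRT20 and EZR. Capitals mark TTTAT on either strand, which reads ATAAA where it lies on the reverse strand. The FABP1 window is chr2:88128117-88128312, cut to the 196 bases before the first GENCODE exon. The others are the 250 bases before a RefSeq start, chr12:57051199-57051448 for MYO1A, chr17:40885243-40885492 for KRT20 and chr6:158818236-158818485 for EZR, all on the minus strand.
FABP1: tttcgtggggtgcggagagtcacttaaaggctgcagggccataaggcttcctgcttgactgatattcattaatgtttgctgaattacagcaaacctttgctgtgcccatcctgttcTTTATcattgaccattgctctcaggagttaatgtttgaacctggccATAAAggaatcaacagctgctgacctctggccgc
MYO1A: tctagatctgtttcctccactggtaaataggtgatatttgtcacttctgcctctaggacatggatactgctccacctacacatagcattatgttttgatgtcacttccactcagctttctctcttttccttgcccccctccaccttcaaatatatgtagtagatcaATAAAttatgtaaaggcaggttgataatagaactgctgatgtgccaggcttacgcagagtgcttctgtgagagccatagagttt
KRT20: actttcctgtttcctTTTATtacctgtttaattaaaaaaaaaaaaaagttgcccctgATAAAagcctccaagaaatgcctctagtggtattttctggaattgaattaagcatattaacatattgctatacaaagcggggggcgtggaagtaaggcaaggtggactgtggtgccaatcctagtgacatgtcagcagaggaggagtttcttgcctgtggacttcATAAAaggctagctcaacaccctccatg
EZR: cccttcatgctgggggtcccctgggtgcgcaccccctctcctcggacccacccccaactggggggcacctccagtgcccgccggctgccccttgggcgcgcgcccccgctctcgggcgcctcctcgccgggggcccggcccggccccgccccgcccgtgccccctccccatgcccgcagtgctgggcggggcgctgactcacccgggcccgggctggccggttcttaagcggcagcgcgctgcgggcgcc

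FABP1 holds TTTAT at 134 and 88 bases before its RefSeq start, and the site at 88 belongs to a match to TTTATNG. The printed MYO1A window holds 1 site at 84 bases, also within a match to TTTATNG, and the window of the other MYO1A start holds 1 at 219 bases, again within such a match. KRT20, which rose, holds 3 sites at 235, 193 and 28 bases with no match to the longer form, and EZR holds none. Neither window of CDHR2 holds TTTAT. Of 35116 promoter windows of 250 bases, 32.7% hold TTTAT and 8.93% hold TTTATNG on either strand. Another motif scanned, GTTAAT, had matches in the windows of FABP1 and KRT20 and in a window of CDHR2, and 6.23% of all windows hold it. Every TTTATNG match contains a TTTAT match. Such matches describe letters in a window and say nothing of binding in these cells.

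EZR, the membrane linker of the microvillus core (chromosome 6, 158765741 to 158819412, minus strand), rose at the high dose of Aucklandiae Radix. That group had 712 and 742 CPM, against 359 and 370 CPM at the low dose and without overlap (log2 1.00 ± 0.06 SE, edgeR adjusted p 1.54e-17). The other 54 libraries of the fit ranged from 321 to 431 CPM. No other extract had EZR called between high and low dose. Of its relatives in the ezrin, radixin and moesin family, MSN averaged 1136 CPM at the high dose of Aucklandiae Radix, against 572 CPM at the low dose (0.99 ± 0.04), and RDX 53.7 against 43.3 CPM (0.31 ± 0.10). Under Polygalae Radix MSN averaged 278 CPM at the high dose, against 538 CPM at the low dose (-0.95 ± 0.04), while EZR did not pass (-0.12 ± 0.06, edgeR adjusted p 0.160).

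KRT20, the keratin of mature colonic surface cells (chromosome 17, 40875941 to 40885227, minus strand), rose under 3 extracts and fell under 1. Aucklandiae Radix had 672 and 683 CPM at the high dose, against 239 and 232 CPM at the low dose (log2 1.52 ± 0.06 SE, edgeR adjusted p 1.35e-25). Guibi-tang had 372, 377 and 380 CPM at the high dose, against 227, 224 and 232 CPM at the low dose (0.72 ± 0.05, edgeR adjusted p 3.17e-16). Menthae Herba had 315, 325 and 311 CPM at the high dose, against 245, 241 and 240 CPM at the low dose (0.39 ± 0.05, edgeR adjusted p 1.39e-08). Polygalae Radix had 181 and 163 CPM at the high dose, against 242 and 229 CPM at the low dose (-0.45 ± 0.06, edgeR adjusted p 2.87e-08). High and low dose did not overlap in any of these 4 extracts. With the outlying library kept, the calls in Menthae Herba (edgeR adjusted p 0.433) and Polygalae Radix (0.388) were lost. At the medium dose of Aucklandiae Radix the libraries had 324 and 308 CPM, above all 3 vehicle libraries at 227, 268 and 259 CPM (0.33 ± 0.05, edgeR adjusted p 1.24e-05).

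CDHR5, a protocadherin of microvillus tips (chromosome 11, 616565 to 626078, minus strand), rose with KRT20 under 2 of these extracts. Aucklandiae Radix had 29.4 and 27.2 CPM at the high dose, against 17.2 and 16.2 CPM at the low dose (log2 0.76 ± 0.09 SE, edgeR adjusted p 1.01e-09). Guibi-tang had 21.6, 20.7 and 22.5 CPM at the high dose, against 18.1, 15.0 and 14.0 CPM at the low dose (0.45 ± 0.08, edgeR adjusted p 1.78e-05). Neither pair of ranges overlapped, and the call in Guibi-tang was lost with the outlying library kept (edgeR adjusted p 0.220). The 2 libraries of Aucklandiae Radix medium, at 21.4 and 20.7 CPM, were above all 3 vehicle libraries at 17.6, 16.0 and 16.7 CPM (0.32 ± 0.08, edgeR adjusted p 0.00698), a call lost without either medium library (0.0978 and 0.0508).

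**Figure D4:**
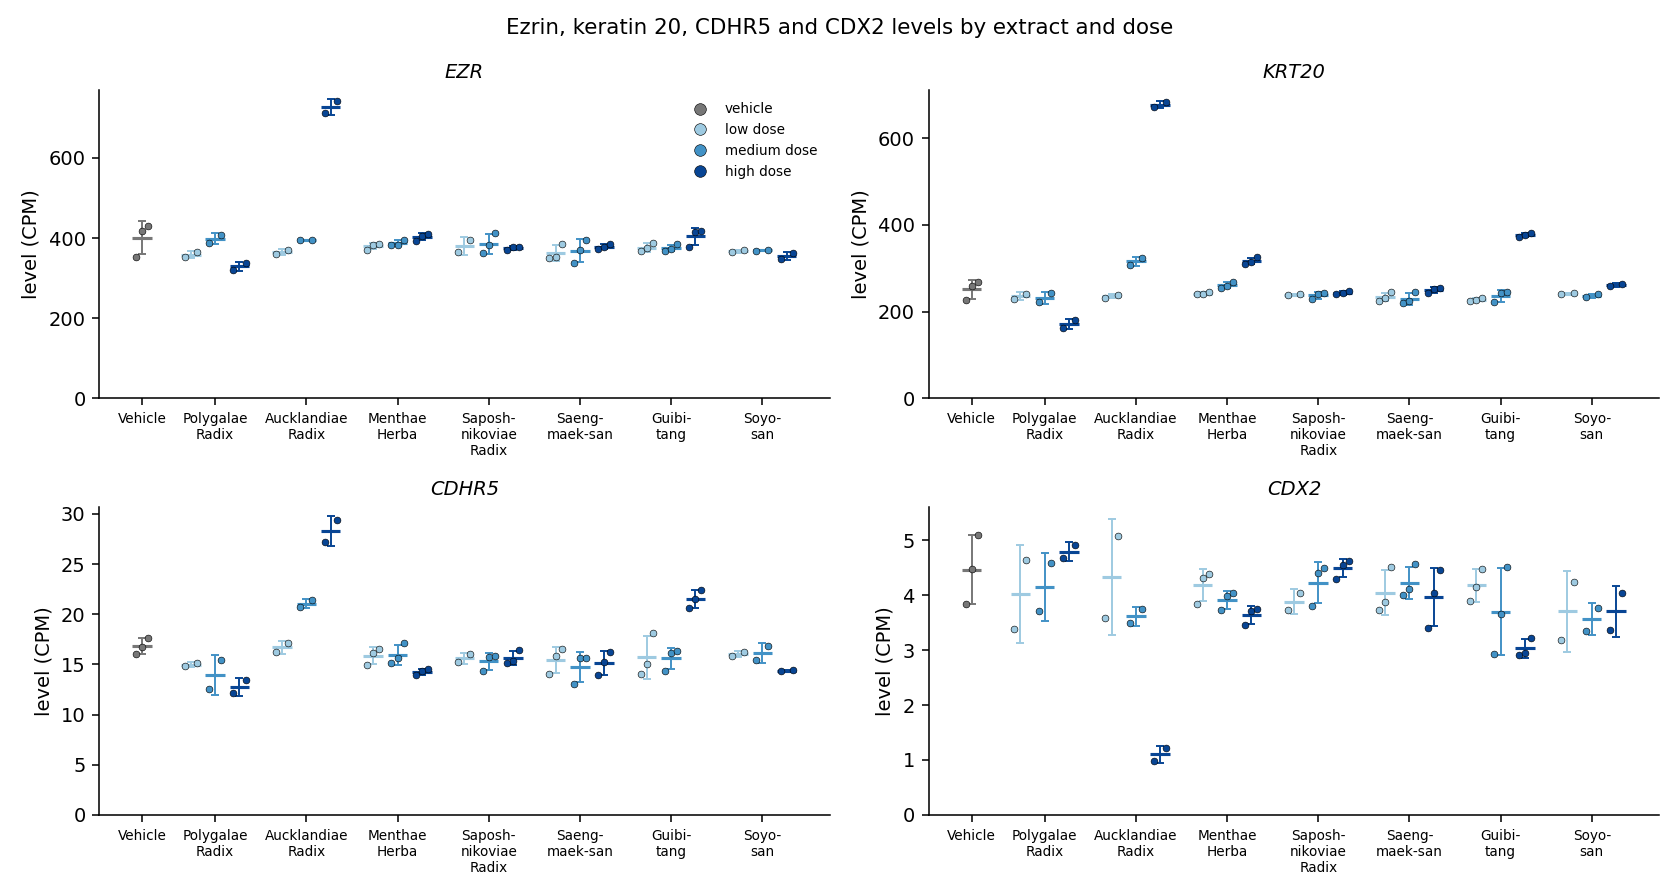
Levels in CPM (vertical axes) of EZR, KRT20, CDHR5 and CDX2 in the vehicle and at the low, medium and high dose of 7 extracts (horizontal axes). Points are libraries, lines means and bars SD. The high dose of Aucklandiae Radix stands alone in all panels, at means of 727, 677, 28.3 and 1.10 CPM, and Guibi-tang high is next for KRT20 and CDX2, while for CDHR5 it overlaps Aucklandiae Radix medium.

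CDHR2, the partner of CDHR5 at microvillus tips (chromosome 5, 176542511 to 176595974, plus strand), had 139 counts over all 60 libraries and was not tested. Aucklandiae Radix high had 6 and 9 counts, against 3 and 1 counts at the low dose and 4, 3 and 1 counts in the vehicle. The ratio of summed levels, high over low dose, was 3.80 with an exact 95% interval of 1.21 to 15.7 for counting error. No other library of the fit had more than 7 counts. CDHR2 shares its last part with GPRIN1, a gene on the opposite strand with 10932 counts over all libraries. The strand setting of the counting is not given, and the part of GPRIN1 reads in the CDHR2 counts was not tested. CDH17, the liver-intestine cadherin (chromosome 8, 94127171 to 94217303, minus strand), was called between high and low dose in no extract by edgeR. At an unadjusted p under 0.05 it moved in 4 of the 7 extracts, lower in Polygalae Radix, Aucklandiae Radix and Menthae Herba and higher in Guibi-tang, and DESeq2 called it in 0 of the 7.

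Direct comparison of extracts within a library set tested whether these patterns differ. At the high dose, Polygalae Radix minus Aucklandiae Radix had 3 of 9 members higher and 4 lower, with 58.3% of all genes called, 28.9% higher and 29.4% lower. The same counts, 3 and 4, held for the difference between their changes from low to high dose, with 46.6% of all genes called, 22.6% higher and 24.0% lower. FABP1 (log2 difference of the changes 3.39 ± 0.57 SE), CDX1 (3.19 ± 0.77) and CDX2 (2.23 ± 0.27) were higher for Polygalae Radix. KRT20 (-1.98 ± 0.08), EZR (-1.12 ± 0.09), CDHR5 (-0.99 ± 0.14) and VIL1 (-0.79 ± 0.06) were lower, with edgeR adjusted p between 1.13e-23 and 0.000627 over these 7 genes. VIL1 thus fell in both extracts and by more in Polygalae Radix, while KRT20 moved in opposite directions. The 2 high doses, 380 and 370 µg/mL, are not the same concentration.

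Menthae Herba minus Saposhnikoviae Radix at the high dose, both at 500 µg/mL, had 2 members higher and 1 lower (16.1% of all genes called, 8.08% higher and 8.03% lower). For the difference of changes 1 was higher and 1 lower (3.59%, 1.40% higher and 2.19% lower). The test of changes found a larger fall of VIL1 (-0.33 ± 0.05 SE, edgeR adjusted p 1.63e-05) and a larger rise of KRT20 (0.37 ± 0.07, edgeR adjusted p 0.000768) under Menthae Herba. Saengmaek-san minus Guibi-tang, also at 500 µg/mL, had 2 higher and 2 lower at the high dose (12.7%, 6.37% higher and 6.36% lower). For the difference of changes 1 was higher and 2 lower (7.20%, 3.63% higher and 3.57% lower). VIL1 fell by less under Saengmaek-san (difference 0.21 ± 0.05, edgeR adjusted p 0.00152), and the changes of KRT20 (-0.63 ± 0.07, edgeR adjusted p 3.00e-09) and CDHR5 (-0.48 ± 0.11, edgeR adjusted p 0.00364) were lower than under Guibi-tang. With the outlying library kept, KRT20 in the first pair was at -0.059 (edgeR adjusted p 0.910), and the 3 calls of the second pair were lost (VIL1 0.21, KRT20 -0.63 and CDHR5 -0.49).

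Against the vehicle, the high doses gave more calls, but all of these comparisons share the same 3 vehicle libraries. The vehicle libraries also carry their own name prefix, so a difference between sets and an extract effect cannot be told apart. Aucklandiae Radix high had 3 members higher and 6 lower (62.0% of all genes called, 31.0% higher and 31.0% lower) and Polygalae Radix high 0 and 7 (36.5%, 16.8% higher and 19.6% lower). Guibi-tang high had 2 higher and 3 lower (29.4%, 14.7% higher and 14.7% lower) and Menthae Herba high 2 and 3 (28.2%, 13.7% higher and 14.5% lower). Soyo-san high had 0 higher and 2 lower (17.7%, 8.44% higher and 9.24% lower), Saengmaek-san high 1 and 1 (12.0%, 5.79% higher and 6.16% lower) and Saposhnikoviae Radix high 0 and 1 (10.2%, 5.17% higher and 5.01% lower). Under Polygalae Radix the calls beyond those between doses were EZR (log2 -0.28 ± 0.06 SE), CDHR5 (-0.40 ± 0.09), CDH17 (-0.82 ± 0.18) and CDX1 (-0.92 ± 0.37). CDX1 was near the threshold there (edgeR adjusted p 0.0462), in Menthae Herba (-0.87 ± 0.31, 0.0300) and in Guibi-tang (-0.92 ± 0.33, 0.0276), and DESeq2 called it in none of these 3 (adjusted p 0.0895, 0.0620 and 0.0578). CDH17 under Aucklandiae Radix had 1.97 and 2.73 CPM, against 2.98, 2.97 and 3.21 CPM in the vehicle. Its change of -0.39 ± 0.16 SE (edgeR adjusted p 0.0392) was -0.15 without high replicate 2, with an adjusted p of 0.577. The fall of MYO1A under Polygalae Radix against the vehicle, -1.90 ± 0.43 SE (edgeR adjusted p 0.000483), was -1.32 without high replicate 3 and did not pass (0.0803).

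At the medium dose, 4 members were called against the vehicle in Aucklandiae Radix (13.6% of all genes called) and 2 in Polygalae Radix (10.1%). The 4 were KRT20 and CDHR5, both higher, and VIL1 and CDX1, both lower. The 2 were VIL1 and CDHR5, both lower. CDX1 (-1.07 ± 0.37 SE, edgeR adjusted p 0.0440) lost its call without vehicle replicate 1 (0.129) or replicate 3 (0.0653) and in the DESeq2 test (0.0869), and was -0.64 without medium replicate 2 (0.448). CDHR5 under Polygalae Radix medium (-0.26 ± 0.09, edgeR adjusted p 0.0492) was -0.12 without medium replicate 3 (0.670). At the medium dose of the 5 other extracts edgeR and DESeq2 both called 0 members, and 3 members of Saengmaek-san, 2 of Soyo-san, 1 of Guibi-tang and 0 of Menthae Herba and Saposhnikoviae Radix had an unadjusted p under 0.05. Of all genes, 11.4%, 8.58%, 11.0%, 10.1% and 3.68% were called in these 5 extracts, in that order. At the low dose both tools called 0 members in all 7 extracts, while 9.98% of all genes were called in Polygalae Radix, 4.97% in Aucklandiae Radix, 9.46% in Menthae Herba, 11.5% in Saposhnikoviae Radix, 18.0% in Saengmaek-san, 6.04% in Guibi-tang and 9.80% in Soyo-san. There 2 members of Saengmaek-san and 1 member each of Polygalae Radix, Aucklandiae Radix, Guibi-tang and Soyo-san had an unadjusted p under 0.05, and 0 of Menthae Herba and Saposhnikoviae Radix.

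Other brush border genes were also counted between high and low dose. They belong to the microvillus core, its motors, membrane linkers and scaffolds, and the complex that CDHR2 and CDHR5 build. The shares of all genes called, against which these and the following list counts are to be read, were 13.3% higher and 16.0% lower under Polygalae Radix and 29.6% higher and 29.1% lower under Aucklandiae Radix. Of 16 such genes tested, 0 were higher and 10 lower at the high against the low dose of Polygalae Radix (median log2 fold change -0.42, all genes -0.01). Under Aucklandiae Radix 4 were higher and 9 lower (median -0.18, all genes -0.02), under Guibi-tang 2 and 8 (all genes 8.84% higher and 9.08% lower), under Menthae Herba 1 and 7 (12.0% and 11.6%) and under Soyo-san 0 and 5 (1.11% and 1.38%). Under Saengmaek-san no such gene was called (all genes 0.412% higher and 0.436% lower) and the median was -0.08. Under Saposhnikoviae Radix the median was -0.05. PDZK1, a scaffold of brush border transporters, averaged 1.85 CPM at the high dose of Aucklandiae Radix, against 13.2 CPM at the low dose (-2.83 ± 0.10 SE). ANKS4B, a scaffold of the tip-link complex, averaged 3.60 against 17.4 CPM (-2.28 ± 0.09). Of its other parts, the motor MYO7B (-1.11 ± 0.20) and the scaffold USH1C (-0.88 ± 0.06) fell there, while the protocadherin CDHR5 itself was higher.

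Among these core, motor, linker and scaffold genes, MYO1D, MSN, MYO6 and PLS1 had the largest falls under Polygalae Radix. The membrane motor MYO1D averaged 54.5 CPM at the high dose, against 109 CPM at the low dose (-1.01 ± 0.05 SE). The linker MSN changed by -0.95 ± 0.04, the motor MYO6 by -0.86 ± 0.09 and the actin bundler PLS1 by -0.80 ± 0.08 (71.1 against 124 CPM). USH1C was lower by -0.77 ± 0.06 there, by -0.42 ± 0.05 under Menthae Herba, by -0.40 ± 0.05 under Guibi-tang and by -0.32 ± 0.06 under Soyo-san. MYO7B was lower by -0.61 ± 0.19 under Polygalae Radix, by -1.40 ± 0.16 under Menthae Herba, by -0.68 ± 0.15 under Guibi-tang and by -0.74 ± 0.18 under Soyo-san. EPS8, which caps and bundles microvillus actin, was higher under Aucklandiae Radix (0.45 ± 0.06) and did not pass under Polygalae Radix (-0.01 ± 0.06).

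Of 8 enzymes and glycoproteins of the brush border membrane tested out of 15 listed, 4 were higher and 2 lower under Aucklandiae Radix (median 0.78; all genes 29.6% higher and 29.1% lower), and 0 and 4 under Polygalae Radix (median -0.71; all genes 13.3% and 16.0%). DPP4, a surface dipeptidase, averaged 64.6 CPM at the high dose of Aucklandiae Radix, against 32.9 CPM at the low dose (0.97 ± 0.08 SE). At the high dose of Polygalae Radix it averaged 17.6 CPM, against 32.3 CPM at the low dose (-0.87 ± 0.09). The transpeptidase GGT1 moved likewise, at 0.59 ± 0.12 under Aucklandiae Radix and -0.91 ± 0.14 under Polygalae Radix. CEACAM5 (1.45 ± 0.10) and CEACAM1 (-0.55 ± 0.06) under Aucklandiae Radix are adhesion glycoproteins of this membrane and not enzymes, and they moved apart. Of 5 transport and lipid genes tested out of 17 listed, 1 was higher and 3 lower under Aucklandiae Radix (median -1.69), and 0 and 2 under Polygalae Radix (median -0.34). SLC5A1, the sodium and glucose carrier of absorption, averaged 1.51 CPM at the high dose of Aucklandiae Radix, against 11.2 CPM at the low dose (-2.88 ± 0.13), and 7.41 against 11.5 CPM under Polygalae Radix (-0.63 ± 0.10). The carbonic anhydrase CA2 changed by -1.69 ± 0.13 and -0.34 ± 0.11 in these extracts, and the sodium and proton exchanger SLC9A2 rose by 0.48 ± 0.14 under Aucklandiae Radix.

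**Figure D5:**
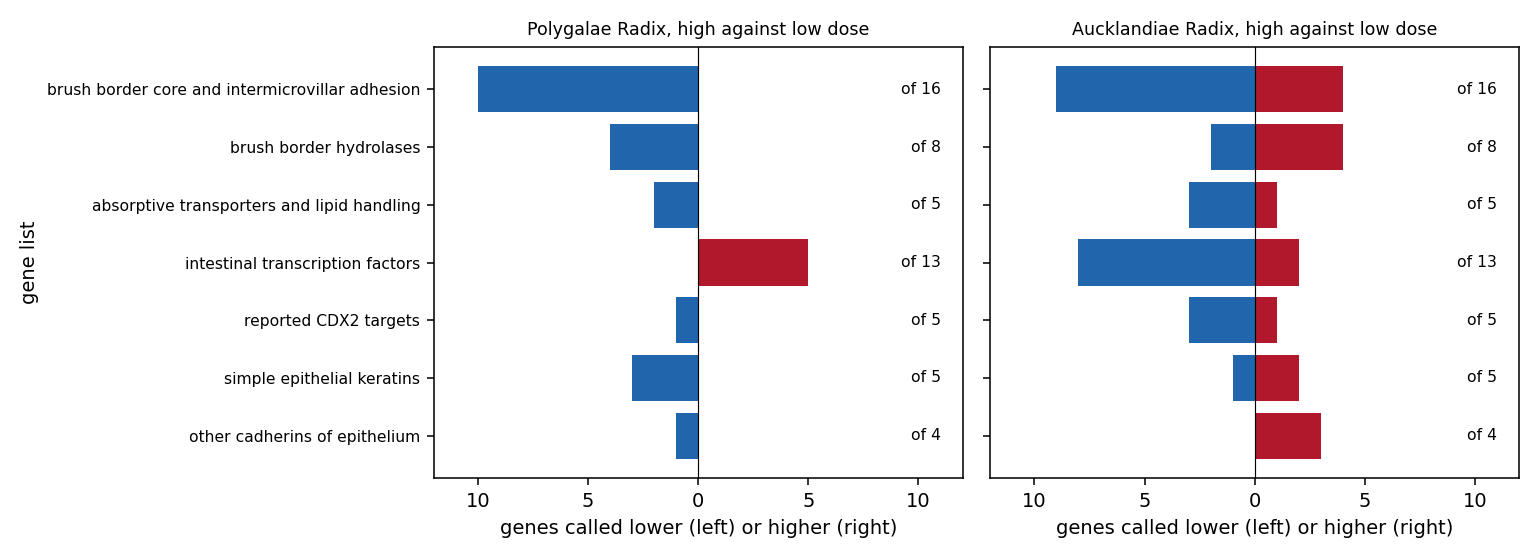
Number of genes called lower (blue, left of 0) or higher (red, right of 0) at the high against the low dose of Polygalae Radix and Aucklandiae Radix (horizontal axis) in each gene list (vertical axis), with the number tested at the right of each panel. Of the 13 transcription factors 5 were higher under Polygalae Radix, and 2 were higher and 8 lower under Aucklandiae Radix.

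The counts of intestinal transcription factors other than CDX1 and CDX2 ran opposite ways in these extracts, a difference that was not tested over the list. Of 13 tested, 2 were higher and 8 lower under Aucklandiae Radix (median -0.33), and 5 were higher and 0 lower under Polygalae Radix (median 0.11). HNF4G averaged 12.7 CPM at the high dose of Aucklandiae Radix, against 39.7 CPM at the low dose (-1.64 ± 0.11 SE), and its paralogue HNF4A 38.1 against 88.0 CPM (-1.21 ± 0.06), both nuclear receptors of enterocyte genes. FOXA1 (-1.25 ± 0.07) fell as well. KLF4, a factor of differentiated surface cells, averaged 26.9 CPM at the high dose of Aucklandiae Radix, against 7.78 CPM at the low dose (1.79 ± 0.10), and 14.6 against 7.47 CPM under Polygalae Radix (0.97 ± 0.11). PRDM1, a repressor known from fetal gut in mice, was higher under Aucklandiae Radix (1.59 ± 0.21). GATA6 (0.41 ± 0.07) and ELF3 (0.35 ± 0.06), both epithelial factors, were higher under Polygalae Radix.

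Of 5 genes reported as CDX2 targets and tested, out of 10 listed, 1 was higher and 3 lower under Aucklandiae Radix (median -0.69), where 29.6% of all genes were higher and 29.1% lower. Under Polygalae Radix 0 were higher and 1 lower (median -0.08), where 16.0% of all genes were lower, so this count is near the background. MUC2, the main intestinal mucin, averaged 2.82 CPM at the high dose of Aucklandiae Radix, against 21.2 CPM at the low dose (-2.90 ± 0.33 SE), and the tight junction gene CLDN2 24.8 against 160 CPM (-2.70 ± 0.06). HEPH, an iron oxidase of enterocytes, was lower by -0.69 ± 0.09, and the desmosome gene DSC2 was higher, at 144 against 52.3 CPM (1.46 ± 0.07). Under Guibi-tang 1 was higher and 3 lower (median -0.45), where 8.84% of all genes were higher and 9.08% lower. DSC2 was at 0.61 ± 0.06 there, MUC2 at -0.71 ± 0.22 and CLDN2 at -0.45 ± 0.05. Under Menthae Herba, where CDX2 did not pass (-0.20 ± 0.14, edgeR adjusted p 0.315), 3 were lower, with MUC2 at -1.48 ± 0.24. Of all genes, 12.0% were higher and 11.6% lower there.

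Keratins and cadherins beside the members give the setting of KRT20 and CDH17. Of 5 keratins of simple epithelium, 2 were higher and 1 lower under Aucklandiae Radix (median 0.32), near the shares over all genes of 29.6% and 29.1%, and 0 and 3 under Polygalae Radix (median -0.57), where 13.3% and 16.0% of all genes were called. KRT19 averaged 869 CPM at the high dose of Aucklandiae Radix, against 469 CPM at the low dose (0.89 ± 0.07 SE). KRT8 averaged 3902 CPM at the high dose of Polygalae Radix, against 6134 CPM at the low dose (-0.65 ± 0.07). Of 4 tested cadherins, 3 were higher and 0 lower under Aucklandiae Radix (median 0.56), with PCDH1 at 1.25 ± 0.06 and the desmosomal DSG2 at 0.95 ± 0.10, and CDH1 alone was lower under Polygalae Radix (-0.55 ± 0.05). Summed levels of cell type markers also differed between high and low dose. At the high dose of Aucklandiae Radix the 5 crypt stem markers summed to 6.83 to 7.25 CPM, against 42.7 to 45.3 CPM at the low dose. The 5 squamous markers summed to 19.0 to 21.2 CPM, against 1.55 to 1.66 CPM, and the 5 blood cell markers, of which only CD68 averaged over 1 CPM in the vehicle, to 45.5 to 47.7 CPM, against 5.63 to 6.18 CPM. Over the 56 libraries the squamous sum rests on SPRR1B (1867 counts) and IVL (1035), while KRT5 had 15, KRT14 34 and TP63 49 counts. The 6 goblet markers summed to 148 to 160 CPM, against 270.0 to 272 CPM. AGR2 weighs most in the goblet sums, at 218 CPM in the vehicle, against SPDEF 34.4, MUC2 22.3, FCGBP 15.7, TFF3 4.30 and ATOH1 3.91 CPM. LGR5 weighs most in the crypt stem sums, at 29.9 CPM in the vehicle, against EPHB2 5.45, ASCL2 5.10, SMOC2 0.0703 and OLFM4 0 CPM. Polygalae Radix high had 22.5 to 26.8 CPM of the crypt stem markers, against 44.4 to 44.7 CPM at the low dose, and 222 to 230 CPM of the goblet markers, against 274 to 282 CPM. Its 8 epithelial markers, which include VIL1, CDX2 and CDH17, summed to 7272 to 8113 CPM, against 11716 to 11803 CPM at the low dose. Most of this sum is keratin: in the vehicle KRT8 averaged 7398 and KRT18 4380 CPM, against 164 for VIL1, 4.47 for CDX2 and 3.05 for CDH17. Guibi-tang high had 29.3 to 33.9 CPM of the crypt stem markers, against 42.6 to 44.9 CPM, and 212 to 217 CPM of the goblet markers, against 278 to 282 CPM. Menthae Herba high had 33.8 to 39.6 CPM of the crypt stem markers, against 43.9 to 44.5 CPM, and 168 to 172 CPM of the goblet markers, against 260 to 272 CPM. Goblet markers were also lower without overlap at the high dose of Soyo-san (233 to 244 CPM, against 276 to 283 CPM) and Saposhnikoviae Radix (236 to 257 CPM, against 273 to 283 CPM). Some sums rose without overlap from low to high dose. The epithelial sum was 13834 to 14042 against 11400 to 11931 CPM under Aucklandiae Radix, and 12696 to 13562 against 12016 to 12385 CPM under Menthae Herba. The crypt stem sum under Saposhnikoviae Radix was 48.5 to 48.8 against 42.3 to 42.9 CPM. The part of these markers in the members' changes was not tested.

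Okbyeongpung-san, with 1 library per dose and hence no test, had 172.5, 154 and 139 CPM of VIL1 at the low, medium and high dose. All 3 values lie within the range of 53.3 to 173 CPM over the 56 libraries, and the high dose is below every vehicle library. KRT20 had 237, 233 and 297 CPM at these doses, EZR 383, 376 and 385 CPM, CDHR5 16.3, 16.8 and 16.1 CPM and CDX2 4.37, 4.27 and 4.45 CPM. The library left out, Saposhnikoviae Radix low replicate 2, had 75.2 CPM of VIL1, 1346 CPM of EZR, 52.4 CPM of KRT20, 44.2 CPM of CDHR5 and 7.66 CPM of CDX2. Its values of EZR, CDHR5 and CDX2 lie above all 56 libraries of the fit and its KRT20 below all of them.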

How the data were processed

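RNA from HT29 cells was sequenced as paired reads of 100 bp on an MGI instrument after a directional library kit, per the labels' protocols. The authors deposited 1 table of RSEM expected counts for 60675 genes and 60 libraries. Per the submitters' processing notes FastQC 0.11.9, Trim Galore 0.6.5, STAR 2.7.3a and RSEM 1.3.3 were used with a human GRCh38 build. For the annotation release and strand setting, the sources used here give nothing. Because RSEM shares reads among genes, 10.0% of the values were not whole, and all were rounded before testing.

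From these counts, edgeR 4.0.16 (R 4.3.3) fitted 1 quasi-likelihood model with a mean per group to 56 libraries in 22 groups. TMM scaling and filterByExpr were used, which left 16978 genes and 34 residual degrees of freedom. Saposhnikoviae Radix low replicate 2 was left out by the rule that chose the members, and the 3 single libraries of Okbyeongpung-san give values only. The 34 comparisons were high with low dose, each dose with the vehicle, and extracts within a library set. Genes were called at a Benjamini-Hochberg adjusted p under 0.05 over all genes tested, separately in each comparison. SE is the absolute log2 fold change divided by the root of the F statistic. CPM uses TMM-scaled totals. Depth of 18690501 to 36796414 counts makes members such as VIL1 precise and leaves CDX1, FABP1, MYO1A and CDHR2 limited by counting error. Exact intervals of count ratios are at 95% and cover counting error only.

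Text names all members and, per list and direction, up to 4 called genes with the largest change and a mean of at least 1 CPM; 1 such gene is not reported here. Genes alike in pattern are the 5 with the highest Pearson correlation over 22 group means. Coordinates come from GENCODE 29 and promoter windows from RefSeq. Members and gene lists were chosen with earlier results of these data known. The steps were tested on simulated data. Alternatives were DESeq2 1.42.0, DESeq2 size factors, no filter, each set fitted alone, a replicate block, the outlying library kept, and each library left out.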

Additional observations from a re-analysis of the deposited data

Results flagged for a closer look

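The change from low to high dose differed between extracts of 1 library set for 12 results, each by the edgeR test of the difference itself with Benjamini-Hochberg adjustment over all genes. Between Polygalae Radix and Aucklandiae Radix, which have 2 libraries per dose, the log2 difference of the changes was -0.79 ± 0.06 SE for VIL1 (adjusted p 1.72e-15), -1.12 ± 0.09 for EZR (adjusted p 5.56e-14) and -0.99 ± 0.14 for CDHR5 (adjusted p 5.68e-08). It was -1.98 ± 0.08 for KRT20 (edgeR adjusted p 1.13e-23). In the other direction it was 3.39 ± 0.57 for FABP1 (edgeR adjusted p 2.99e-06), 3.19 ± 0.77 for CDX1 (adjusted p 0.000627) and 2.23 ± 0.27 for CDX2 (adjusted p 2.06e-09). FABP1 and CDX1 rest on 6 and 3 counts at the high dose of Aucklandiae Radix, so the size of these differences depends on the prior count of the fit.

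Between Menthae Herba and Saposhnikoviae Radix the difference was -0.33 ± 0.05 SE for VIL1 (edgeR adjusted p 1.63e-05) and 0.37 ± 0.07 for KRT20 (adjusted p 0.000768). Between Saengmaek-san and Guibi-tang it was 0.21 ± 0.05 for VIL1 (edgeR adjusted p 0.00152), -0.48 ± 0.11 for CDHR5 (adjusted p 0.00364) and -0.63 ± 0.07 for KRT20 (adjusted p 3.00e-09).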

How the results depend on the processing

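Counts of called members (of 9 tested) mostly stayed within 1.5 times under other settings. Of the single fold changes 3569 kept their side of the threshold, 44 gained a call, 117 lost it and 5 reversed. A change of sign counts as a reversal only where the main or the other setting called the gene. Changes of sign between uncalled values are among the 3569. All 5 reversals came with Saposhnikoviae Radix low replicate 2 kept. They were VIL1 (0.10) and CDHR5 (-0.66) between its high and low dose, EZR (0.81) and CDHR5 (0.56) between its low dose and the vehicle, and KRT20 (-0.059) in the change of Menthae Herba minus that of Saposhnikoviae Radix. With that library kept, the counts between high and low dose were 1 in Menthae Herba (against 3 without it), 3 in Saposhnikoviae Radix (1), 1 in Guibi-tang (4), and 0 in Saengmaek-san (1) and Soyo-san (1), and KRT20 lost its call under Polygalae Radix (edgeR adjusted p 0.388). High dose against vehicle gave 3 for Polygalae Radix (7), 1 for Menthae Herba (5), and 0 in each of Guibi-tang (5), Soyo-san (2), Saengmaek-san (2) and Saposhnikoviae Radix (1). Medium dose gave 0 for Polygalae Radix (2) and Aucklandiae Radix (4), and low dose 3 for Saposhnikoviae Radix (0). Menthae Herba minus Saposhnikoviae Radix gave 0 (3) and Saengmaek-san minus Guibi-tang 0 (4) at the high dose and 0 (3) for the change. That library moved the count over all genes by more than 1.5 times in 34 of 34 comparisons, and counts with each set fitted alone moved so in 15 of 34. Without the filter the counts were 0 for Saposhnikoviae Radix high against low (1), 1 for Polygalae Radix medium (2) and 1 for the low dose of Polygalae Radix and of Saengmaek-san against the vehicle (0 each). With each set alone they were 0 for Saposhnikoviae Radix high against low (1), 1 for Soyo-san high (2) and 1 for Polygalae Radix medium (2) against the vehicle. DESeq2 gave 1 for Saengmaek-san high (2) and 1 for Polygalae Radix medium (2), and DESeq2 size factors 1 for Soyo-san high (2) and 1 for Polygalae Radix medium (2). The cause was not tested.

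With 1 library left out in turn, calls between high and low dose ranged from 3 to 3 for Polygalae Radix, 8 to 9 for Aucklandiae Radix, 2 to 3 for Menthae Herba, and 0 to 1, 1 to 1, 3 to 4 and 1 to 1 for Saposhnikoviae Radix, Saengmaek-san, Guibi-tang and Soyo-san. In the same order, high dose against vehicle ranged from 5 to 7, 8 to 9, 4 to 5, 1 to 2, 1 to 2, 4 to 5 and 1 to 2. Medium dose ranged from 1 to 2, 2 to 4, 0 to 0, 0 to 1, 0 to 2, 0 to 2 and 0 to 2, and low dose from 0 to 2, 0 to 2, 0 to 1, 0 to 1, 0 to 2, 0 to 2 and 0 to 1. Extracts compared at the high dose ranged from 7 to 8, 2 to 3 and 3 to 4, and their changes gave 7, 2 and 3 throughout. For FABP1 without a single library, Menthae Herba minus Saposhnikoviae Radix at the high dose had edgeR adjusted p up to 0.165 and Saengmaek-san minus Guibi-tang up to 0.136, and FABP1 in Saengmaek-san high against the vehicle up to 0.186. EZR in Soyo-san high against the vehicle reached 0.281.

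Replicate numbers were checked through each library's deviations from its group mean of log2 CPM over the genes of the fit. Between same-numbered libraries these deviations correlated at -0.045 to 0.062 within a set and -0.088 to 0.113 against the vehicle. In groups of 2 libraries the deviations mirror each other, so the pairs there are not independent. Low correlations over all genes cannot exclude a shared replicate effect on some genes, and the main fit used no pairing. With a replicate block, 1 member was called in Saengmaek-san low against the vehicle (0 without the block), and CDX1 lost its call in Polygalae Radix high (edgeR adjusted p 0.0542) and Aucklandiae Radix medium (0.0534) against the vehicle.

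Depth limits CDX1, FABP1, MYO1A and CDHR2, whose fitted sizes are wide: over the alternatives CDX1 between high and low dose of Aucklandiae Radix ranged from -7.38 to -2.88, FABP1 from -4.76 to -2.81 and MYO1A from -3.25 to -2.23, while VIL1 under Polygalae Radix ranged from -1.62 to -1.54.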
